A study of Mus musculus with 8 samples.

Results

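The genes described here belong to the hypoxia response and to glycolysis, the pathway that splits glucose into pyruvate. The 37 members were chosen by name and matched to the gene name that the array design gives each probe, where Pkm2 and Ero1l are the older symbols of Pkm and Ero1a. They hold 62 of the 39429 probes on the array and 37 of its 31791 gene names. The probe for Mxi1, a repressor that antagonizes MYC, was at the floor of 15 units on all 8 arrays, which left 36 genes and 60 probes to test. All 36 were well above background on all 8 arrays, by the scanner software's own flag on the probe that stands for the gene.

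The study asked how polarized gut epithelium responds to type III against type I interferon (IFN). The cells were IEC10, an immortalized line of mouse intestinal epithelial cells that according to the methods carries an Mx2-luciferase reporter transgene, and all groups were grown for 21 days on transwell inserts, on which the cells polarize. The control group received no cytokine (medium in the labels, PBS in the methods; n = 2, labelled replicates 2 and 3, with a replicate 1 not analysed here), while the other groups received 20 ng/mL IFN-λ2 (n = 3) or 500 U/mL IFN-β (n = 3), each for 9 h. Total RNA was labelled with Cy3 and hybridised to 1-colour arrays. The groups come from 1 cell line, and the labels do not say whether the replicates were separate cultures, so that p-values measure the spread between these samples.

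On the 8 arrays 53.2% to 61.5% of the probes were well above background and none was saturated. The 14 interferon-stimulated genes used as a reference all rose with both cytokines, with median log2 differences from control of 4.30 for IFN-λ2 and 3.81 for IFN-β. All 8 epithelial markers were measured on all arrays, and with IFN-λ2 2 of them rose and 1 fell. Of 8 mesenchymal markers, Vim alone was measured on all arrays and Col3a1, Pdgfra and Pdgfrb on none. The summed signal of the 8 was 12091 to 15278 units on the control arrays, 6784 to 8634 with IFN-λ2 and 14232 to 15918 with IFN-β. Vim made up nearly all of this sum, with 11921 and 15108 units in control, and no other mesenchymal marker was called. Vim, an intermediate filament protein, fell by 0.87 ± 0.14 on the log2 scale with IFN-λ2 against control (SE, adjusted p = 0.00763) and was -1.01 against IFN-β (adjusted p = 0.00418). Of 5 enterocyte markers, 2 were measured on all arrays and the summed signal was 147 to 162 units in control, 292 to 331 with IFN-λ2 and 199.8 to 218 with IFN-β. These 2 were Lct, the brush border enzyme lactase, and Fabp2, which rose by 1.38 and 0.65 with IFN-λ2 (adjusted p = 0.000942 and 0.00263). Sis, the brush border enzyme sucrase-isomaltase, was well above background on 6 arrays and rose by 1.19 (adjusted p = 0.0487). Of the 7 leukocyte markers, 4 were measured on all arrays, with sums of 10756 to 14372, 8595 to 10872 and 9090.2 to 16379 units in control, IFN-λ2 and IFN-β. Endothelial Cdh5 and Tek were measured on no array, and the 4 endothelial markers summed to 828 to 1012 units in control, 829 to 979 with IFN-λ2 and 919 to 953 with IFN-β. None of the leukocyte or endothelial markers was called in limma. The fall of Vim and the rise of enterocyte markers went with the IFN-λ2 changes described next, and their part in them was not tested.

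Hypoxia-inducible factors (HIF) are transcription factors whose α subunits are marked for destruction by prolyl hydroxylases as long as oxygen is present. When oxygen falls, the α subunits persist and switch on genes for glucose uptake, glycolysis, blood vessel growth, pH control and the removal of mitochondria. The gut epithelium borders an almost oxygen-free lumen and runs this programme at a low level even in health, where HIF supports the barrier.

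The HIF recognition core is spelled by the letters ACGTG or GCGTG. To show where these letters lie in front of members that the results turn on, the 250 bases before the start site are given from the RefSeq promoter table (GRCm38.p6), 5′ to 3′ on the strand of the gene, with ACGTG and GCGTG on either strand in capitals. Pfkfb3 has a pair of start sites in the table, Hk2, Ankrd37, P4ha2, Car9 and Eno2 are members that moved with IFN-λ2, and Ldha is shown as a classical HIF target whose brightest probe was called in no comparison.
Pfkfb3 at chr2:11502091-11502340 (minus strand): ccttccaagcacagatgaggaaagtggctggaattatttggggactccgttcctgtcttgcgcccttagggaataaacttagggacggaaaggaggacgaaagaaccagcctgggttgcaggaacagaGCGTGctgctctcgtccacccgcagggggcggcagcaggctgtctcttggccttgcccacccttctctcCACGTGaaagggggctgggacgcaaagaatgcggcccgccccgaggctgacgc
Pfkfb3 at chr2:11553930-11554179 (minus strand): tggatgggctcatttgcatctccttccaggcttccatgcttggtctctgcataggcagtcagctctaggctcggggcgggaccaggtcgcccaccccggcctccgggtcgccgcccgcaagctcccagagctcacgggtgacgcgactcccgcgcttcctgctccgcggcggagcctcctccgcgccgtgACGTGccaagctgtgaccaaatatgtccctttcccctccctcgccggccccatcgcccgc
Hk2 at chr6:82774455-82774704 (minus strand): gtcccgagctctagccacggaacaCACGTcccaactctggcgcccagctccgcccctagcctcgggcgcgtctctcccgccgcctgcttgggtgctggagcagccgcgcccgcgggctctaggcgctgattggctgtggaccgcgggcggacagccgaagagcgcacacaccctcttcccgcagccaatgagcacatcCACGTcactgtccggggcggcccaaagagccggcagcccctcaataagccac
Ankrd37 at chr8:45999851-46000100 (minus strand): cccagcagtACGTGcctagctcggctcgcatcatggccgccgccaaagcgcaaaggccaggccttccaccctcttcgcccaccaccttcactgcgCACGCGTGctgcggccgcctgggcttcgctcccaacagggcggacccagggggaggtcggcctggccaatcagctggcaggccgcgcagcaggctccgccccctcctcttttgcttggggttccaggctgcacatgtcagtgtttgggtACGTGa
P4ha2 at chr11:54100674-54100923 (plus strand): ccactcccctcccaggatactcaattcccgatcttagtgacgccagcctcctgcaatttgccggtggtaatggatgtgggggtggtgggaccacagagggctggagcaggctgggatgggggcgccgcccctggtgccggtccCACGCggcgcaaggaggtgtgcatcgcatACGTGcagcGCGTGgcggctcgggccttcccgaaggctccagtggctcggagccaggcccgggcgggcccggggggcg
Car9 at chr4:43506776-43507025 (plus strand): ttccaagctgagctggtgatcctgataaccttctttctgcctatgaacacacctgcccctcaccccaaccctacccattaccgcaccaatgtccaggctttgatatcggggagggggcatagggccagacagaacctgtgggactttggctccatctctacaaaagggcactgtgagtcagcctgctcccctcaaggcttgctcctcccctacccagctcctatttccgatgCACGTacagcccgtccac
Eno2 at chr6:124769674-124769923 (minus strand): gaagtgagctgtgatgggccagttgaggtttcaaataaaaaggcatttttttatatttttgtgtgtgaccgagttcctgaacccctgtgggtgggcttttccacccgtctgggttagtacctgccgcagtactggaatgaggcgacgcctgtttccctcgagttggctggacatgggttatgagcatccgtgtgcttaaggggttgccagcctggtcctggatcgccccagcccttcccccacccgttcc
Ldha at chr7:46845554-46845803 (plus strand): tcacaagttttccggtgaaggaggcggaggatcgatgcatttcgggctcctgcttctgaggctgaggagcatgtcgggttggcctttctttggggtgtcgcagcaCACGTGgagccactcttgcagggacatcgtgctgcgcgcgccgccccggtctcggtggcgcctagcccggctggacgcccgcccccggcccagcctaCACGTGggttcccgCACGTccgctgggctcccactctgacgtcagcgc
In these 250 bases the Pfkfb3 starts held 3 and 1 matches, Ldha held 5 matches and Ankrd37 held 4, P4ha2 held 3, Hk2 held 2, Car9 held 1 and Eno2 held 0. A second Ldha start in the table, at chr7:46846832-46847081, held 1 match and is not printed. The palindrome CACGTG counts as a match on each strand.

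Promoter windows of 300 bases, 250 before to 50 after a start, were in the table for 34 of the 37 members (52 windows), and Epas1, Bnip3l and Ndrg1 had no entry. ACGTG stood on either strand of 28 of the 52 windows (53.8%) and in 19.6% of the 32851 windows of the table. GCGTG also stood in 28 (53.8%), against 32.4% of all windows. Either core was found for 31 of 34 genes and in 40 windows (76.9%), against 43.8% of all. The letters GAAA, repeated after any 2 bases as in the interferon-stimulated response element, stood in 1 window, that of Vegfa (1.92%, against 3.44% of all windows), and TTCNNNGAA, the gamma-activated site, stood in 3 (5.77%, against 8.30%). These matches describe the letters of a list made of known HIF targets, and whether they are bound was not tested. Members with and without a called change both held cores. Among called members, the windows of Bnip3, Ankrd37 and P4ha2 held 5, 4 and 4 matches, those of Car9, Pfkl and Pfkfb4 held 1 each, and the single window of Eno2 held 0. Among members not called on their brightest probe, a window of Ldha held 7, that of Pfkp 4 and those of Gapdh and Pgam1 3 each.

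With IFN-λ2, 11 of the 36 members changed against control: 4 rose and 7 fell. Those that rose were Pfkfb3, Pfkfb4, Hk1 and Hk2, and those that fell were Ankrd37, Car9, Eno2, P4ha2, Bnip3, Pfkl and Ndrg1. The share of all 20819 tested gene names called higher was 10.3% and lower 8.42%, beside 11.1% and 19.4% of the members, so that the share of members that rose was near that of all genes. Among the 16105 names measured on all arrays, as all these members were, the shares were 11.9% and 9.48%. With the further demand of a 2-fold change, Pfkfb3 was higher and Ankrd37 and, less firmly, Car9 were lower, where 2.79% and 1.2% of all names passed. A call means an adjusted p under 0.05 in limma, with the adjustment over all 25972 probes tested. The median log2 difference over the 36 members was -0.11, beside 0.00 over all probes tested, and the 3 IFN-λ2 arrays gave member medians of -0.18, -0.11 and -0.09 relative to the control mean. The 3 IFN-β arrays gave -0.07, 0.01 and -0.01. The 15 enzymes of glycolysis had medians of -0.13, -0.04 and -0.05 on the IFN-λ2 arrays and the other 21 members -0.23, -0.26 and -0.20. On the IFN-β arrays the other 21 members were also below control, with medians of -0.22, -0.14 and -0.08.

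**Figure D1:**
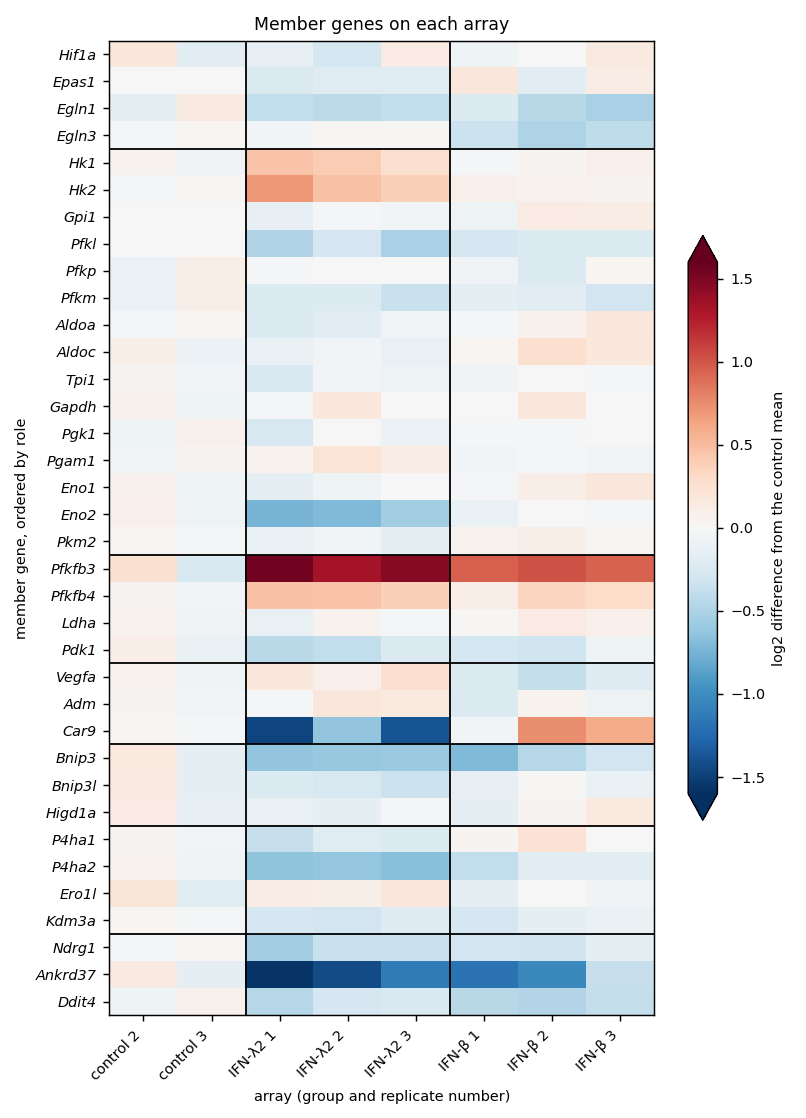
Log2 difference of each of the 36 tested member genes (rows, grouped by role) from the mean of the 2 control arrays, on each of the 8 arrays (columns, group and replicate number). Pfkfb3 was above control on all 6 cytokine arrays, and Ankrd37 and P4ha2 were below it on all 6.

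Among the regulators, Hif1a, the oxygen-labile HIF-1α subunit, measured 3623 and 2864 units on the control arrays, 2944, 2641 and 3527 with IFN-λ2 and 3084, 3243 and 3553 with IFN-β. The 3 groups overlapped, and the 95% interval of the log2 difference was -0.46 to 0.27 for IFN-λ2 and -0.33 to 0.39 for IFN-β. Epas1, which encodes HIF-2α, gave 2764 and 2797 units in control, 2365, 2433 and 2440.4 with IFN-λ2 and 3139.7, 2468 and 3006 with IFN-β. All IFN-λ2 arrays lay below the others, with a difference from control of -0.20 (-0.46 to 0.05, adjusted p = 0.237) and from IFN-β of -0.24 (adjusted p = 0.175). A second, dimmer Epas1 probe nearer the 3′ end read 193 and 205 units in control, 139, 149 and 176 with IFN-λ2 and 238, 220.2 and 209 with IFN-β. On that probe IFN-λ2 was lower than IFN-β by 0.53 on the log2 scale (adjusted p = 0.0204), so that the probes for Epas1 shared a direction but not a call. Egln1, the main HIF prolyl hydroxylase, was -0.40 with IFN-λ2 and -0.39 with IFN-β (adjusted p = 0.0617 and 0.251), and its 6 cytokine arrays all lay below both control arrays.

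Egln3, a prolyl hydroxylase that HIF itself induces, separated the cytokines. It measured 1843 and 1926 units in control, 1834, 1906 and 1901 with IFN-λ2 and 1481, 1338 and 1426 with IFN-β (probe at chr12:55280953-55281012, mm9). The IFN-β arrays lay below all others, while IFN-λ2 overlapped control. Egln3 fell by 0.41 ± 0.07 on the log2 scale (SE, 1.33-fold lower, adjusted p = 0.046) with IFN-β against control, a call that was lost with a replicate block (adjusted p = 0.169), and stood higher in the IFN-λ2 than in the IFN-β group by 0.41 ± 0.06 on the log2 scale (SE, 1.33-fold, adjusted p = 0.00947). Against control the IFN-λ2 difference was 0.00 with an interval of -0.17 to 0.17. Its second probe gave differences of -0.36 for IFN-β against control (adjusted p = 0.156) and 0.36 for IFN-λ2 against IFN-β (adjusted p = 0.034).

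Pfkfb3 had the largest rise of the 36 members with either cytokine. It encodes the enzyme that makes fructose 2,6-bisphosphate, the activator of phosphofructokinase, and so sets the pace of glycolysis. Its brightest probe (chr2:11393453-11393512, mm9) measured 2634 and 1869.8 units in control, 6492, 5580.2 and 6098 with IFN-λ2 and 4301, 4479 and 4282 with IFN-β. All IFN-λ2 arrays stood above all IFN-β arrays, which stood above both control arrays. The means were 2252 ± 541 (SD, n = 2) in control, 6057 ± 457 (SD, n = 3) with IFN-λ2 and 4354 ± 109 (SD, n = 3) with IFN-β. Pfkfb3 rose by 1.45 ± 0.15 on the log2 scale (SE, 2.72-fold, adjusted p = 0.00108) with IFN-λ2 and by 0.97 ± 0.15 on the log2 scale (SE, 1.96-fold, adjusted p = 0.0234) with IFN-β, where the call was lost with a replicate block (adjusted p = 0.13). The difference between the cytokines, 0.47 ± 0.13, did not pass (adjusted p = 0.0646, interval 0.16 to 0.78). A dim second probe, annotated to another transcript of the gene, read 65.8 and 34.8 units in control, 91.5, 93 and 84.1 with IFN-λ2 and 66.6, 56.2 and 48.8 with IFN-β. Its differences from control were 0.90 (adjusted p = 0.0543) and 0.25 (adjusted p = 0.768), the latter with overlapping arrays.

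Pfkfb4, its sister enzyme of the same reaction pair, measured 1156 and 1079 units in control, 1550.1, 1527 and 1458 with IFN-λ2 and 1204, 1414 and 1365 with IFN-β (probe at chr9:108934652-108934711, mm9). The groups did not overlap, and IFN-λ2 lay above IFN-β by 0.19 without a call (adjusted p = 0.198). It rose by 0.44 ± 0.09 on the log2 scale (SE, 1.35-fold, adjusted p = 0.0179) with IFN-λ2, and with IFN-β the difference was 0.25 (adjusted p = 0.344). A second Pfkfb4 probe was at the floor on all arrays and was not tested.

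Hk1 and Hk2, the hexokinases that trap glucose in the cell, were higher with IFN-λ2 than in both other groups. Hk2 measured 5709 and 5839.9 units in control, 9369, 7981 and 7511 with IFN-λ2 and 6121, 6015 and 5937 with IFN-β (probe at chr6:82675056-82675115, mm9). The lowest IFN-λ2 array exceeded the highest of the other arrays. Hk2 rose by 0.51 ± 0.10 on the log2 scale (SE, 1.43-fold, adjusted p = 0.0149) against control and was above IFN-β by 0.45 ± 0.09 on the log2 scale (SE, 1.37-fold, adjusted p = 0.0216). With IFN-β alone the difference from control was 0.06, with an interval of -0.18 to 0.30.

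Hk1 gave 13910.1 and 12870.0 units in control, 18307, 17673 and 15998 with IFN-λ2 and 13179, 13829 and 14105 with IFN-β (probe at chr10:61731856-61731915, mm9), and the IFN-λ2 arrays stood above all others. The rise was 0.37 ± 0.09 on the log2 scale (SE, 1.29-fold, adjusted p = 0.026) against control, and IFN-λ2 exceeded IFN-β by 0.34 ± 0.08 on the log2 scale (SE, 1.26-fold, adjusted p = 0.0342). Neither Hk1 call was kept with a replicate block (adjusted p = 0.0682 and 0.074). A second Hk1 probe, dimmer and nearer the 5′ end, overlapped between groups, with 0.11 against control (adjusted p = 0.659) and 0.24 against IFN-β (adjusted p = 0.334).

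Pfkl and Eno2 fell with IFN-λ2. Eno2, the enolase isoform best known from neurons, measured 1207 and 1083 units in control, 682, 699.9 and 777 with IFN-λ2 and 1062, 1151 and 1127 with IFN-β (probe at chr6:124710388-124710447, mm9). The IFN-λ2 arrays lay below all the others, and IFN-β overlapped control. Eno2 fell by 0.67 ± 0.09 on the log2 scale (SE, 1.59-fold lower, adjusted p = 0.00349) against control and was lower than with IFN-β by 0.63 ± 0.08 on the log2 scale (SE, 1.55-fold lower, adjusted p = 0.00432). Pfkl, the liver-type phosphofructokinase subunit, gave 5198 and 5278 units in control, 3746, 4329 and 3664 with IFN-λ2 and 4355, 4486 and 4461 with IFN-β (probe at chr10:77450926-77450985, mm9). All 6 cytokine arrays were below control, with a fall of 0.42 ± 0.09 on the log2 scale (SE, 1.34-fold lower, adjusted p = 0.018) for IFN-λ2, not kept with a replicate block (adjusted p = 0.0539), and a difference of -0.24 for IFN-β (adjusted p = 0.343).

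The other phosphofructokinase subunits were not called on their brightest probes. Pfkm, the muscle type, differed from control by -0.26 with IFN-λ2 and -0.21 with IFN-β (adjusted p = 0.105 and 0.457), and Pfkp, the platelet type, by -0.01 and -0.09. A second Pfkp probe, well above background on 7 of 8 arrays and close to the floor, read 28.4 and 26.6 units in control, 40.9, 35.7 and 40.3 with IFN-λ2 and 33.5, 35.6 and 35.2 with IFN-β. That probe rose by 0.50 with IFN-λ2 (adjusted p = 0.00896), unlike the brightest one.

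**Figure D2:**
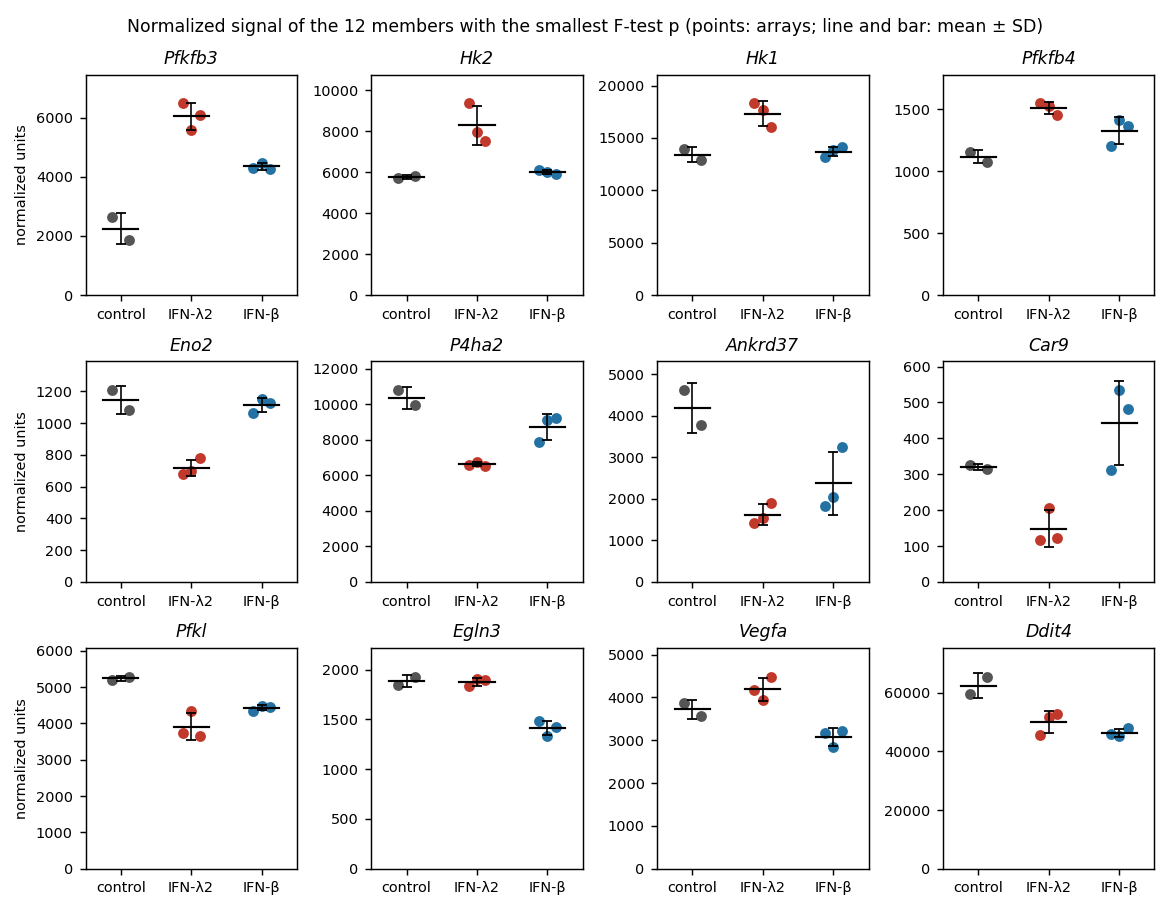
Normalized signal in units (linear axis from 0) of the 12 members with the smallest p in the F-test over the 3 groups, with a point for each array and the mean ± SD of control (n = 2), IFN-λ2 (n = 3) and IFN-β (n = 3). Pfkfb3 was highest with IFN-λ2, Eno2 was lowest with IFN-λ2, and Egln3 was lowest with IFN-β.

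Apart from the phosphofructokinase subunits and Eno2, described above, the 9 enzymes from glucose phosphate isomerase to pyruvate kinase were called in none of the 3 comparisons. Against control with IFN-λ2 the log2 difference was -0.06 for Gpi1 (-0.27 to 0.14), -0.16 for the aldolase Aldoa (-0.37 to 0.06) and -0.09 for Aldoc (-0.31 to 0.13). It was -0.13 for triosephosphate isomerase Tpi1 (-0.32 to 0.07), 0.05 for Gapdh (-0.19 to 0.28) and -0.12 for the kinase Pgk1 (-0.33 to 0.10). At the end of the pathway it was 0.13 for the mutase Pgam1 (-0.05 to 0.30), -0.07 for the enolase Eno1 (-0.29 to 0.14) and -0.10 for pyruvate kinase Pkm2 (-0.26 to 0.06). The outermost bounds of these 95% intervals belonged to Aldoa on the lower and Pgam1 on the upper side. With IFN-β the same 9 enzymes differed from control by -0.04 (Pgam1) to 0.15 (Aldoc). Several of these genes have near-identical processed copies: the array design places the Pgk1 probe on chromosome 3 and a Gapdh probe on chromosome 8, and Eno1 has a near-identical copy, Eno1b, so that signal from copies cannot be told apart there.

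Ldha, the lactate dehydrogenase subunit that turns pyruvate into lactate, gave different answers along its transcript. Its brightest probe, which starts at base 1755, measured 174400.4 and 162094 units in control, 155514, 175052 and 164834 with IFN-λ2 and 170159.9, 184421 and 178109 with IFN-β. The groups overlapped, with a difference of -0.03 for IFN-λ2 (-0.22 to 0.17) and of 0.08 for IFN-β (-0.12 to 0.27). The probe at base 970 read 32537 and 38485 units in control, 23754, 28437 and 23672 with IFN-λ2 and 33509, 30479.7 and 30586 with IFN-β. There all IFN-λ2 arrays lay below control, a fall of 0.49 ± 0.12 (adjusted p = 0.0303). At base 351 the difference was -0.55 (adjusted p = 0.0603), and with IFN-β it was -0.17 at base 970 and -0.21 at base 351, neither called.

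The 7 probes of Gapdh, the dehydrogenase often used as a reference gene, differed less toward the 3′ end, from 0.05 at base 1175 to -0.30 at base 156 for IFN-λ2 against control. None was called. Over 1899 transcripts with probes at least 500 bases apart, the median log2 ratio of the 5′ to the 3′ probe, relative to control, was -0.12, -0.05 and -0.15 on the IFN-λ2 arrays, -0.01, -0.13 and -0.10 on the IFN-β arrays and -0.07 and 0.07 on the control arrays. The control values mirror each other because the ratio is centred on their mean. The part of this ratio in the Ldha and Gapdh values was not tested.

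**Figure D3:**
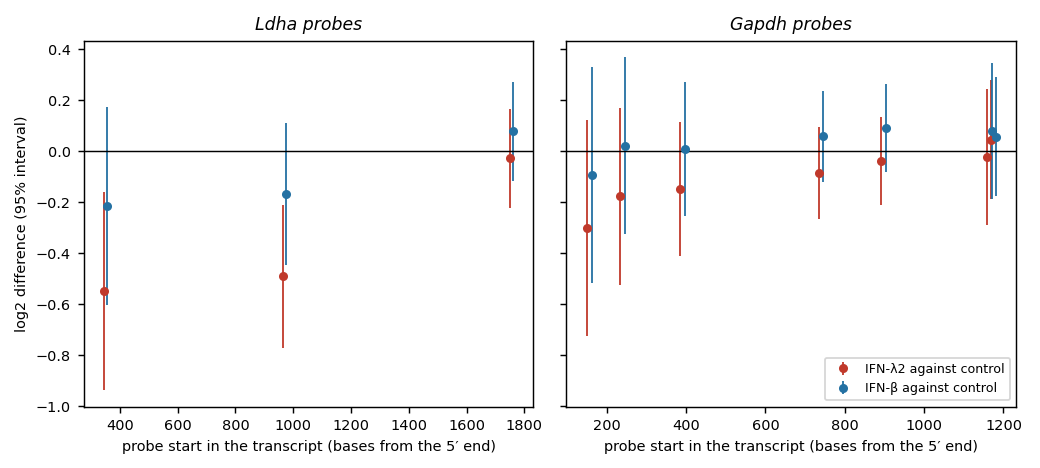
Log2 difference from control (points, with 95% intervals) of the 3 Ldha and 7 Gapdh probes against the base at which each probe starts in its transcript, counted from the 5′ end, for IFN-λ2 and IFN-β. In both genes the IFN-λ2 difference was near 0 at the 3′ end and lower toward the 5′ end, and all Gapdh intervals included 0.

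Pdk1, a kinase that inactivates pyruvate dehydrogenase, differed from control by -0.35 with IFN-λ2 (-0.62 to -0.09, adjusted p = 0.0744) and by -0.22 with IFN-β (adjusted p = 0.507). Its IFN-λ2 arrays all lay below control, and its IFN-β arrays overlapped it.

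Car9, the cell-surface carbonic anhydrase that handles the acid of glycolytic cells, showed the widest gap between the cytokines among the members. It measured 326 and 314 units in control, 116, 207 and 123 with IFN-λ2 and 310.5, 534 and 483 with IFN-β (probe at chr4:43526518-43526577, mm9). All IFN-λ2 arrays were below both other groups, while IFN-β replicate 1 lay below control and replicates 2 and 3 above it. Car9 fell by 1.16 ± 0.31 on the log2 scale (SE, 2.23-fold lower, adjusted p = 0.0426) with IFN-λ2 against control, a call kept under 9 of 21 alternative settings (-0.77 with normexp background correction), and lay below the IFN-β level by 1.59 ± 0.28 on the log2 scale (SE, 3.01-fold lower, adjusted p = 0.0135). IFN-β itself differed from control by 0.43 with an interval of -0.30 to 1.16.

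Vegfa, the main blood vessel growth factor, gave 3876 and 3560.4 units in control, 4171, 3938 and 4476 with IFN-λ2 and 3175, 2844 and 3213 with IFN-β (probe at chr17:46154387-46154446, mm9). The groups did not overlap, with IFN-λ2 highest and IFN-β lowest. IFN-λ2 exceeded IFN-β by 0.45 ± 0.08 on the log2 scale (SE, 1.36-fold, adjusted p = 0.017), while neither cytokine passed against control (0.17, adjusted p = 0.242, and -0.27, adjusted p = 0.308). A second probe, nearer the 5′ end, overlapped between groups and differed by 0.22 between the cytokines (adjusted p = 0.446). Adm, the vasodilator peptide adrenomedullin, differed from control by 0.11 with IFN-λ2 (-0.15 to 0.36) and by -0.08 with IFN-β (-0.34 to 0.17).

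Of the mitochondrial members, Bnip3, a mitophagy receptor, measured 13697 and 11038 units in control, 7944, 8097 and 8119 with IFN-λ2 and 7516, 8929 and 9929.5 with IFN-β (probe at chr7:146082760-146082819, mm9). All 6 cytokine arrays lay below both control arrays. Bnip3 fell by 0.61 ± 0.14 on the log2 scale (SE, 1.53-fold lower, adjusted p = 0.0249) with IFN-λ2, a call not kept with a replicate block (adjusted p = 0.0711), and a second bright probe fell by 0.62 (adjusted p = 0.0304). The dimmest probe was at -1.30 without a call (adjusted p = 0.142). With IFN-β the difference was -0.49 (adjusted p = 0.206). The related receptor Bnip3l differed by -0.28 with IFN-λ2 (adjusted p = 0.113), and all 4 of its probes were lower with IFN-λ2 on every array, without a call. Higd1a, a respiratory chain protein, differed by -0.10 (-0.38 to 0.18). With IFN-β the differences of Bnip3l and Higd1a were -0.07 and 0.02.

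P4ha2, a collagen prolyl 4-hydroxylase subunit that works in the endoplasmic reticulum, measured 10804 and 9941 units in control, 6606, 6760.5 and 6535 with IFN-λ2 and 7868, 9111 and 9217 with IFN-β (probe at chr11:53945032-53945091, mm9). The groups did not overlap, with control highest and IFN-λ2 lowest. P4ha2 fell by 0.64 ± 0.09 on the log2 scale (SE, 1.56-fold lower, adjusted p = 0.00434) with IFN-λ2 and was below IFN-β by 0.39 ± 0.08 on the log2 scale (SE, 1.31-fold lower, adjusted p = 0.0254), while the IFN-β difference from control, -0.25, did not pass (adjusted p = 0.342). Its paralog P4ha1 gave 2475 and 2318 units in control, 1858, 2089 and 2063 with IFN-λ2 and 2477, 2817 and 2402 with IFN-β (probe at chr10:58835625-58835684, mm9). P4ha1 on IFN-λ2 was below IFN-β by 0.36 ± 0.09 on the log2 scale (SE, 1.28-fold lower, adjusted p = 0.0461), on non-overlapping arrays but not with a replicate block (adjusted p = 0.0528), and was -0.26 against control (adjusted p = 0.116). A second, dimmer P4ha1 probe differed by -0.33 between the cytokines, without a call (adjusted p = 0.113). Kdm3a, a histone demethylase that needs oxygen, was -0.26 with IFN-λ2 (adjusted p = 0.0605). Ero1l, the oxidase of the endoplasmic reticulum, was 0.13 (-0.16 to 0.41). With IFN-β the differences from control of P4ha1, Kdm3a and Ero1l were 0.10, -0.17 and -0.08.

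Ankrd37, an ankyrin repeat gene known as a HIF target, had the largest fall of the 36 members against control with either cytokine. It measured 4614 and 3766 units in control, 1408, 1541 and 1895 with IFN-λ2 and 1837, 2032 and 3241 with IFN-β (probe at chr8:47082404-47082463, mm9). All 6 cytokine arrays were below control, and IFN-β replicate 3 lay apart from the other two, nearer to control. Ankrd37 fell by 1.38 ± 0.26 on the log2 scale (SE, 2.6-fold lower, adjusted p = 0.0124) with IFN-λ2. With IFN-β the difference was -0.86 ± 0.26 and did not pass (adjusted p = 0.236).

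Ndrg1, a stress-responsive growth regulator, measured 16264 and 16781 units in control, 11262, 12947 and 12923 with IFN-λ2 and 13358, 13196 and 14778 with IFN-β (probe at chr15:66761057-66761116, mm9). It fell by 0.42 ± 0.09 on the log2 scale (SE, 1.34-fold lower, adjusted p = 0.0232) with IFN-λ2, just outside the threshold with a replicate block (adjusted p = 0.0504), and all 6 cytokine arrays lay below control. Ddit4, an inhibitor of mTORC1 signalling, gave 59575 and 65389 units in control, 45688, 51656 and 52916 with IFN-λ2 and 46039.8, 45120.4 and 47949.6 with IFN-β (probe at chr10:59412486-59412545, mm9). Its 6 cytokine arrays also lay below control, with differences of -0.32 (adjusted p = 0.0502) and -0.43 (adjusted p = 0.093), the former just outside the threshold. In these bulk samples fewer cells of a type and less RNA per cell cannot be told apart.

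Pfkfb3 and P4ha2 kept their IFN-λ2 against control calls under all 21 alternative settings, and Eno2 and Ankrd37 under 20 each. Each of the 11 kept its direction on both slides that held a control array, for example 1.08 and 1.71 for Pfkfb3, -1.58 and -0.99 for Ankrd37 and -0.66 and -1.35 for Car9. With a replicate block, Bnip3, Hk1, Ndrg1 and Pfkl lost theirs (adjusted p = 0.0504 to 0.0711). Without control replicate 2, Ankrd37, Bnip3, Car9, Hk1, Hk2, Ndrg1 and Pfkl were no longer called (0.0547 to 0.144), and without control replicate 3, Car9, Hk1, Hk2, Ndrg1, Pfkfb4 and Pfkl (0.0637 to 0.148). Calls of Bnip3, Car9, Hk1, Ndrg1, Pfkfb4 and Pfkl were lost without IFN-λ2 replicate 1 (0.0636 to 0.12), of Bnip3 and Hk1 without replicate 2 (0.0612 to 0.0689) and of Bnip3, Car9 and Pfkl without replicate 3 (0.052 to 0.114). Car9 also lost its call without IFN-β replicate 3 (0.0668).

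**Figure D4:**
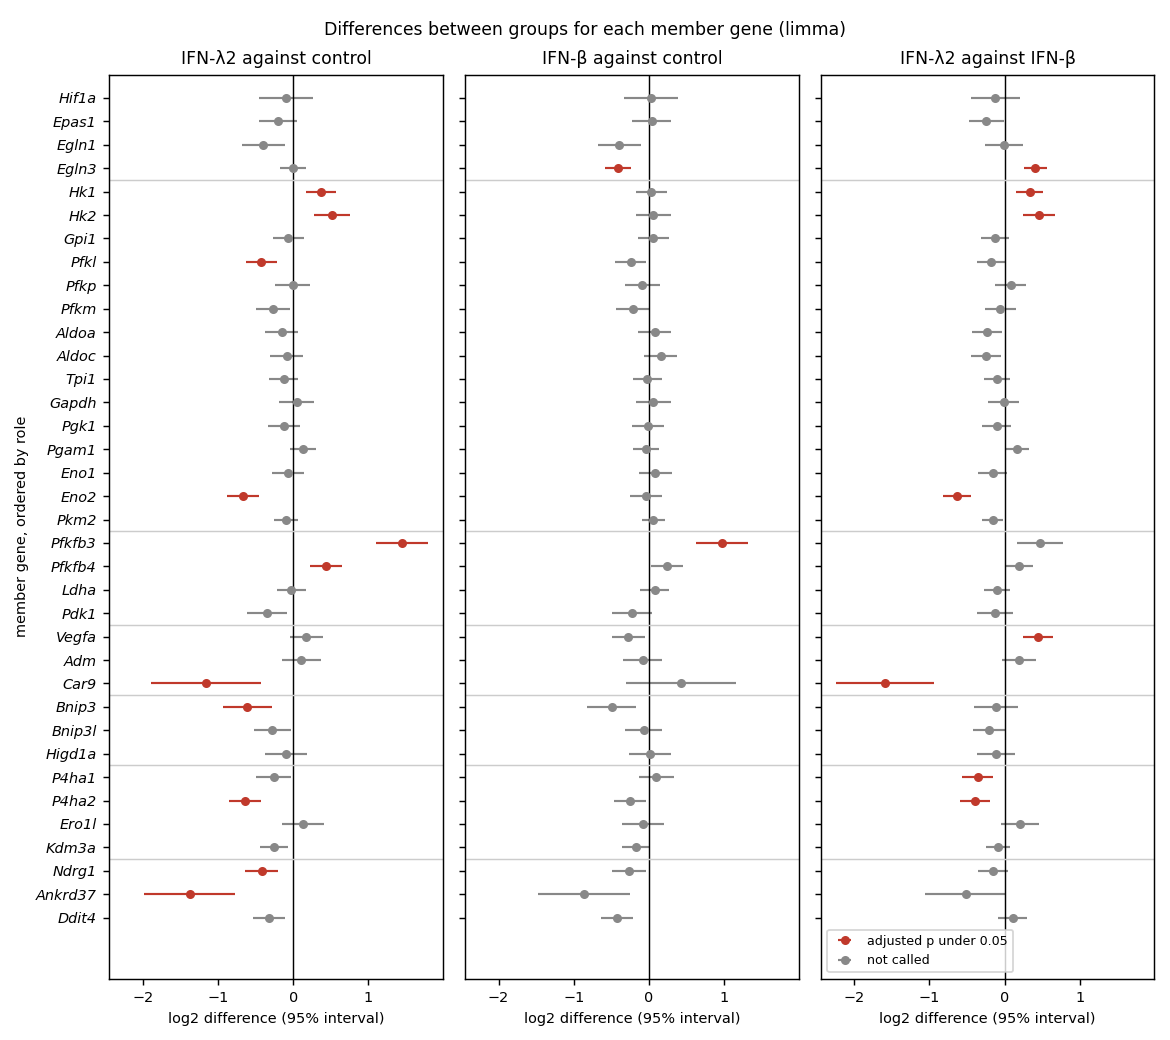
Log2 difference with its 95% interval for the 36 tested member genes (rows, grouped by role) in the 3 comparisons, with called genes in red. There are 11 calls for IFN-λ2 against control, 2 for IFN-β against control and 8 for IFN-λ2 against IFN-β.

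With IFN-β, 2 of the 36 members changed against control: Pfkfb3 rose and Egln3 fell. Of all gene names tested, 1.49% were called higher and 0.197% lower, beside 2.78% of the members each way (1.72% and 0.13% of the names measured on all arrays), and none of the members passed with a 2-fold change in limma (0.898% of all names did on the higher and 0.0336% on the lower side). The comparison shares its control arrays with that of IFN-λ2, so their values stand side by side and are not independent. Ankrd37 was -1.38 with IFN-λ2 and -0.86 with IFN-β, Bnip3 -0.61 and -0.49, and Ddit4 -0.32 and -0.43. The median over the 36 members was -0.03 for IFN-β, beside 0.02 over all probes. Neither call held in every setting: with a replicate block the adjusted p was 0.13 for Pfkfb3 and 0.169 for Egln3. Egln3 lost its call without each array in turn (adjusted p = 0.0658 to 0.2), and Pfkfb3 lost it without IFN-β replicate 1, 2 or 3 or IFN-λ2 replicate 1 or 3 (0.0575 to 0.0905).

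Set directly against IFN-β, IFN-λ2 gave higher levels of 4 members (Egln3, Hk1, Hk2 and Vegfa) and lower levels of 4 (Eno2, Car9, P4ha1 and P4ha2). Of all gene names, 5.74% were called higher and 5.97% lower, beside 11.1% of the members each way (6.26% and 6.53% of the names measured on all arrays). Car9 alone passed with a 2-fold change, on the lower side, where 0.836% of all names did and 1.51% on the higher side. This comparison tests the difference between the cytokines itself, and 6 of the 11 members called with IFN-λ2 against control, Pfkfb3, Pfkfb4, Ankrd37, Bnip3, Pfkl and Ndrg1, did not pass it. Their 95% intervals, which are not adjusted for the number of probes, were 0.16 to 0.78, 0.00 to 0.38, -1.06 to 0.03, -0.41 to 0.18, -0.37 to 0.00 and -0.35 to 0.04. On the 3 slides, each of which held 1 array of both cytokines, the difference of Eno2 was -0.64, -0.72 and -0.54, that of Egln3 0.31, 0.51 and 0.41, that of Car9 -1.42, -1.37 and -1.97 and that of Vegfa 0.39, 0.47 and 0.48. The median over the members was -0.11, beside -0.02 over all probes.

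Egln3 and Eno2 kept their calls between the cytokines under all 21 settings. Hk1 and P4ha1 lost theirs with the replicate block (adjusted p = 0.074 and 0.0528), and P4ha1 was called under 6 of 21 settings. Without IFN-λ2 replicate 1, Car9, Hk1, P4ha1, P4ha2 and Vegfa were no longer called (0.055 to 0.154), without replicate 2 Hk1, Hk2, P4ha1 and P4ha2 (0.0534 to 0.0978) and without replicate 3 Car9, P4ha1, P4ha2 and Vegfa (0.05003 to 0.0963). Leaving out IFN-β replicate 1 removed the calls of Hk1, Hk2 and P4ha1 (0.051 to 0.0866), replicate 2 those of Hk1, Hk2, P4ha1 and P4ha2 (0.0588 to 0.105) and replicate 3 those of Car9, Hk1, Hk2, P4ha1 and P4ha2 (0.0545 to 0.0912). P4ha1 was not called without either control array (adjusted p = 0.0642 in both cases, since a lone control array adds nothing to the spread), and Pfkfb3 was then called (0.0176).

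Other genes of the pathway, from lists outside the members, moved in both directions with IFN-λ2. Of 28 other HIF targets tested, 5 rose and 10 fell (17.9% and 35.7%, beside 10.3% and 8.42% of all gene names), with a median log2 difference of -0.03. Slc2a1, the glucose transporter GLUT1, and Slc16a3, the lactate exporter MCT4, stand on either side of glycolysis and are given as examples chosen after their values were seen. Slc2a1 measured 18241 and 14279.8 units in control, 24731, 24038 and 23393 with IFN-λ2 and 13836, 15725 and 16404 with IFN-β, a rise of 0.58 ± 0.12 on the log2 scale (SE, 1.49-fold, adjusted p = 0.0206) with IFN-λ2 on non-overlapping arrays. Slc16a3 read 8054 and 8033 units in control, 5823, 6637 and 5991 with IFN-λ2 and 5467, 5378 and 5759 with IFN-β. It fell with both cytokines, by 0.39 (adjusted p = 0.0179) and 0.54 (adjusted p = 0.0224). With IFN-β, 2 of the 28 fell, Slc16a3 and the glycogen synthase Gys1 (-0.50, adjusted p = 0.0248), and none rose. The share that fell was 7.14%, beside 0.197% of all gene names, and 1.49% of all names rose. Between the cytokines 3 of the 28 were higher with IFN-λ2, among them Slc2a1, and 2 were lower. Of all gene names, 5.74% were called higher in that comparison. The share of the 28 that was lower, 7.14%, was close to the 5.97% of all gene names. Of 17 other genes that act in HIF signalling itself, Hif3a, whose protein can restrain HIF, was the only call in the 3 comparisons, a fall of 0.51 with IFN-λ2 (adjusted p = 0.0212). This was 5.88% of the 17, below the 8.42% of all gene names that fell with IFN-λ2.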

How the data were processed

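Gene expression was measured in 8 samples of IEC10 cells on 1-colour Agilent whole mouse genome arrays. The labels give Trizol and the methods a silica column for RNA isolation. The authors extracted features with Agilent Feature Extraction 10.7.3.1 and deposited the background-subtracted intensity of every feature, not scaled between arrays. A second deposited table, of intensity values scaled by the authors, served as an alternative.

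Following the methods, control, flagged and outlying features (over 1.42 interquartile ranges, or a pixel coefficient of variation over 0.5) were left out. Copies of a probe were averaged geometrically, each array was scaled so that its 75th percentile was 1500 units, and values below 15 were raised to that floor before taking log2. Probes that exceeded the floor on 2 or more arrays (25972 of 39429) were fitted with limma 3.58.1 in R 4.3.3, as 3 group means over 8 arrays, with Benjamini-Hochberg adjustment over all probes and a threshold of 0.05. The probe with the highest mean signal stands for a gene, and other probes are given where they disagree. Values are given for all called members, and per array for the 12 with the smallest F-test p, for Hif1a, Epas1 and Ldha and for further called members. Outside the list the rule names genes called at 2-fold. Members and lists were chosen with earlier results of these data known. The fits were tested on simulated data. Python 3.11.15 (pandas 2.3.3, numpy 2.4.6, matplotlib 3.10.9) served for tables and plots.

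Per the file headers, arrays of 1 replicate number shared a slide, and each group kept 1 position on it, so that position and group cannot be told apart. Deviations from the group mean correlated by 0.18, 0.25 and 0.30 between IFN-λ2 and IFN-β arrays of the same number, and by -0.06 to 0.10 between control and the cytokines. Cytokine arrays of the same number were therefore taken as paired, but only the replicate block uses this pairing. The main design follows the methods, without a block, so that its p-values and calls do not use the pairing. The number of arrays limits the precision. Alternatives covered background correction, scaling, floor, filter, variance model, probe choice, replicate block and each array left out. Probe coordinates are those of the array design (mm9).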

Additional observations from a re-analysis of the deposited data

How the results depend on the processing

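Of 2268 values of single members over 21 alternatives, 2131 kept their side of the threshold, 110 lost a call and 27 gained one. No called member changed direction, and 62 values, none called in either setting, changed sign. For IFN-λ2 against control (4 higher, 7 lower), normexp background correction left 3 lower (Car9, Eno2, Hk1, Ndrg1 and Pfkl lost their calls, adjusted p = 0.0549 to 0.157) and the replicate block, which is the fit of paired arrays, left 4 lower. The mean of all probes ended the calls of Bnip3 and Hk1 (0.0522 to 0.144). Quantile normalization gave 3 higher and 10 lower (Aldoa, Bnip3l, Ddit4 and Kdm3a gained calls, Car9 and Hk1 lost theirs), and a filter for probes detected on all arrays of at least one group gave 4 higher and 10 lower (Ddit4, Egln1 and Kdm3a gained calls). Leaving out 1 array at a time gave 1 to 4 higher and 3 to 9 lower. For IFN-β against control (1 higher, 1 lower), the mean of all probes, the fit of only the groups compared and the replicate block called 0 higher and 0 lower. No filter and no moderation of the variance left 0 higher, normexp 0 lower, and quantile normalization and a trended variance prior gave 2 lower. Leaving out 1 array gave 0 to 1 higher and 0 lower. For IFN-λ2 against IFN-β (4 higher, 4 lower), the mean of all probes left 2 higher (Hk1 and Vegfa lost their calls), normexp left 1 higher and 2 lower (Hk1, Hk2, P4ha1, P4ha2 and Vegfa lost theirs), and leaving out 1 array gave 2 to 5 higher and 1 to 3 lower. Between the cytokines, Pfkfb3 gained a call with only the groups compared, the filter for detected probes and a trended variance prior (adjusted p = 0.0176, 0.0465 and 0.0358). Pkm2 gained one with the floor of 50 units and Epas1 with the mean of all probes. The replicate block changed no call beyond those given in the report. Normexp moved the median of all probes from 0.00 to 0.11 for IFN-λ2 against control and from -0.02 to 0.09 for the comparison of the cytokines, and its calls are not corrected for this shift. The cause of these changes was not tested, except that fewer arrays enter the fits that leave one out. With 2 control arrays, small shifts of members cannot be resolved. Other probes of a member were not run under the alternatives.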

Other observations

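Gluconeogenesis makes glucose by reversing most steps of glycolysis. Of 7 gluconeogenesis genes tested, 3 rose against control with IFN-λ2 (42.9%, beside 10.3% of all gene names) and none fell. Pck1 and G6pc were well above background on only 1 and 2 of the 8 arrays, and Pcx differed from control by 0.05 (adjusted p = 0.817). Fbp2, a fructose bisphosphatase that opposes phosphofructokinase, measured 36.4 and 27.4 units in control, 133, 101 and 83.2 with IFN-λ2 and 50.3, 45.3 and 43.6 with IFN-β, on dim but detected signal. All IFN-λ2 arrays stood above the rest. Fbp2 rose by 1.71 ± 0.21 on the log2 scale (SE, 3.28-fold, adjusted p = 0.00235) against control and exceeded IFN-β by 1.16 ± 0.19 on the log2 scale (SE, 2.24-fold, adjusted p = 0.0102). Pck2, the mitochondrial phosphoenolpyruvate carboxykinase, rose by 0.45 (adjusted p = 0.013), and G6pc3, a glucose 6-phosphatase, by 0.41 (adjusted p = 0.0157). All 3 were also higher than with IFN-β, while the glucose 6-phosphate transporter Slc37a4 was lower (-0.42, adjusted p = 0.0191). These were 42.9% and 14.3% of the 7, beside 5.74% and 5.97% of all gene names. With IFN-β against control limma called none of the 7.

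Of 25 other glycolysis and pyruvate genes tested, 3 rose with IFN-λ2 and 1 fell. These shares of 12% and 4% were close to or below the 10.3% and 8.42% of all gene names. With IFN-β limma called none, and the median with IFN-λ2 was 0.07. The hexokinase-like Hkdc1 rose by 0.52 (adjusted p = 0.0313), Pdp1, a phosphatase that activates pyruvate dehydrogenase, by 0.42 (adjusted p = 0.0402) and Minpp1, an inositol phosphate phosphatase, by 0.30 (adjusted p = 0.0496). Pdk3, a kinase that inactivates pyruvate dehydrogenase, fell by 0.53 (adjusted p = 0.00598). These genes, other than Fbp2, were chosen after their values were seen.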
